A study of Homo sapiens with 8 samples.

Results

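Ribosome footprints were examined on 6 genes of polyamine metabolism, ODC1, OAZ1, AZIN1, AMD1, SRM and SAT1, each represented by 1 transcript picked by its identifier. All 6 were present among the 82586 transcripts in the deposited tables, and all 6 were annotated as protein-coding. Polyamines are small positively charged molecules that bind nucleic acids and are needed for growth. Their amount is held steady largely through translation. The enzyme ODC1 makes putrescine, and SRM turns putrescine into spermidine with a group supplied by the product of AMD1. Antizyme, encoded by OAZ1, binds ODC1 and sends it to the proteasome, and AZIN1 is an ODC1-like protein without enzyme activity that captures antizyme. SAT1 acetylates spermidine and spermine, the first step of their breakdown and export. In mammalian cells, synthesis of antizyme needs a +1 ribosomal frameshift that polyamines favour. Ribosomes that read through the stop codon of AMD1 are known to translate an extension, at whose end they queue.

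Ribosome profiling, which sequences the mRNA pieces that ribosomes shield from nuclease, was applied to 8 libraries in 4 groups of 2. The groups were HEK293T cells, a human embryonic kidney line with the SV40 large T antigen, without and with NAEK, and transgenic HEK293T cells without and with NAEK. NAEK, an azide-bearing lysine derivative, was given at 1 mM. The transgenic cells stably carry the Mb pyltRNA, a pyrrolysine tRNA that reads the amber stop codon UAG when it is charged, and no source used here says whether they are 1 clone. Read numbers here and below were recovered from the deposited values. By them, libraries held 12923243 to 20569590 reads, the smallest being the transgenic +NAEK replicate 2. The synthetase transgene, which checks the labels, had 93608 to 131223 reads in transgenic libraries and 192 to 254 in HEK293T libraries. The tables give RPKM, reads per kilobase of a region scaled to the total reads of the library, for the coding region and for a first and a second extended region, read here as the stretches beyond the stop codon and beyond the next one. These are sums over a region, so neither the reading frame at the OAZ1 frameshift nor the position of a paused ribosome was measured. Footprint density rises both with more mRNA and with more ribosomes on each mRNA, and these cannot be told apart here. Density also belongs to 1 listed transcript and not to its whole gene. Reads over all entries and regions summed to 91.3 to 91.7% of a library although many entries are isoforms of 1 gene, and no source used here says how reads that fit several isoforms were assigned.

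Coding lengths recovered from the values were whole numbers of codons for all 6 transcripts. ODC1 (ENST00000234111) had a coding region of 1386 nt, and its gene lies on chromosome 2 at 10439968 to 10448327 of GRCh38.p14. OAZ1 (ENST00000602676) had 687 nt, or 229 codons, with its gene on chromosome 19 at 2269486 to 2273488. AZIN1 (ENST00000337198) had 1347 nt and lies on chromosome 8 at 102826302 to 102864200. AMD1 (ENST00000368885) had 1005 nt and lies on chromosome 6 at 110814617 to 110895713. SRM (ENST00000376957) had 909 nt and lies on chromosome 1 at 11054589 to 11060018. SAT1 (ENST00000379270) had 516 nt and lies on chromosome X at 23783173 to 23786210. Gene positions are those of RefSeq.

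The antizyme transcript carried the densest footprints on average and the AMD1 transcript the sparsest. Mean coding density over the 8 libraries was 143 ± 19.3 RPKM (SD, n = 8) for OAZ1, 106 ± 34.6 for SAT1, 56.3 ± 5.52 for ODC1, 32.4 ± 6.17 for SRM, 19.4 ± 1.66 for AZIN1 and 8.99 ± 1.22 for AMD1. RPKM is per length, but how reads shared by isoforms were assigned is not known. The order of levels is therefore one of the listed transcripts and not of whole genes. Among 36276 protein-coding transcripts with a mean of at least 1 RPKM, OAZ1 stood at the 96.6th percentile, ODC1 at the 91.3th and AMD1 at the 61.7th. The places of ODC1, SRM, AZIN1 and AMD1, from the third to the last, were the same in 8 of 8 libraries. OAZ1 and SAT1 traded the top place: OAZ1 was above SAT1 in 6 of 8 libraries, and SAT1 was higher in replicate 1 of both HEK293T groups. Ranges over libraries overlapped between OAZ1 and SAT1 and between SAT1 and ODC1, and did not overlap between the lower neighbours in this order.

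**Figure D1:**
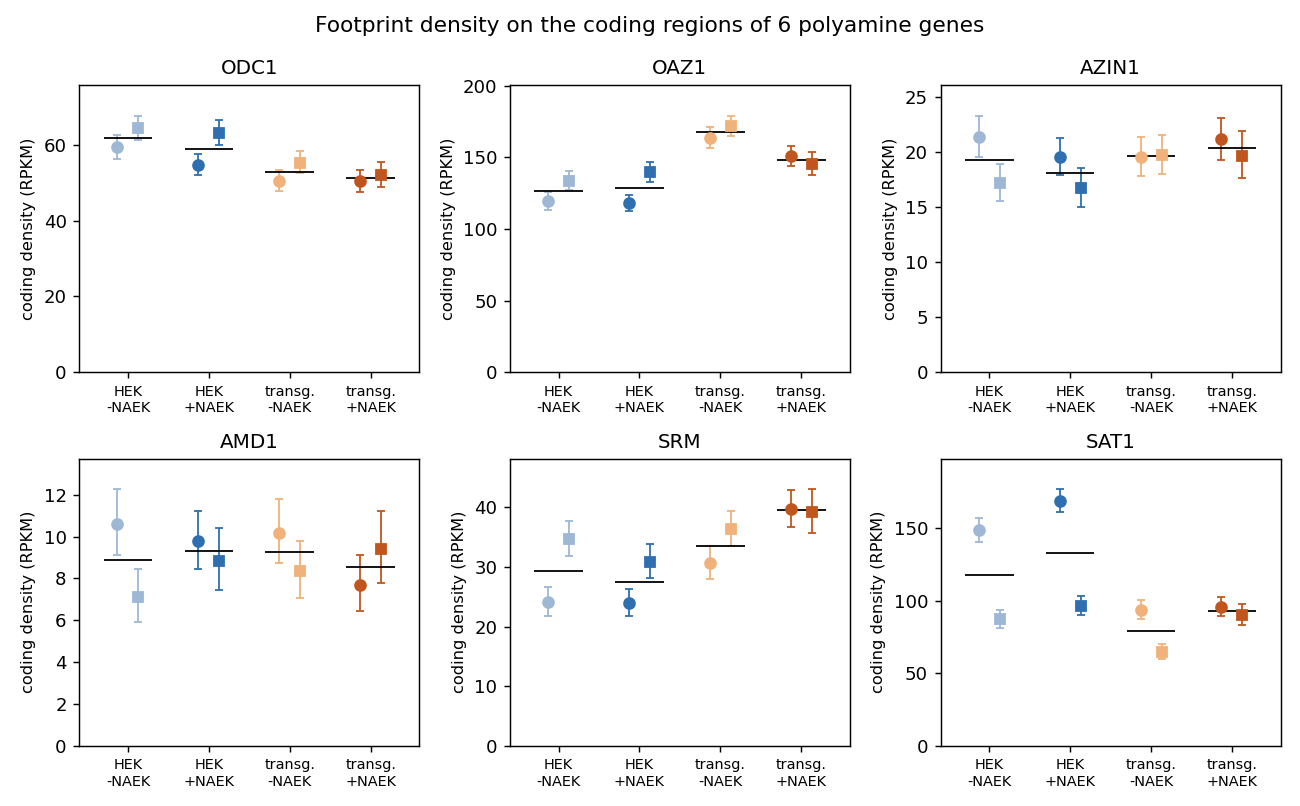
Coding density in RPKM (y axis, from 0) of each gene in the 4 groups (x axis). Circles are replicate 1, squares replicate 2, error bars exact 95% Poisson intervals of the reads (counting error only), and black lines group means of 2 libraries. OAZ1 is higher in all 4 transgenic libraries than in all 4 HEK293T libraries, and SAT1 is higher in replicate 1 than in replicate 2 of every group.

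OAZ1, whose product marks ODC1 for destruction, was the member with the clearest separation between the lines. Its coding density was 119 and 134 RPKM in HEK293T cells without NAEK and 118 and 140 with it. In transgenic cells it was 164 and 172 RPKM without NAEK and 151 and 146 with it. All 4 transgenic libraries thus stood above all 4 HEK293T libraries, as did 5.78% of the 46156 coding regions tested, and 13.8% of regions were separated in either direction. Over both NAEK states the transgenic level was 1.24-fold higher (log2 difference 0.30, SE 0.077, 95% interval 0.13 to 0.48), which did not pass the test (limma, Benjamini-Hochberg adjusted p = 0.0863). With the replicate number as a block it passed (limma adjusted p = 0.0402), as it did with a stricter minimum on reads (adjusted p = 0.0426) and under voom (adjusted p = 0.0178). Over 15 alternatives the adjusted p ran from 0.0178 to 0.216. Within a NAEK state, the log2 difference was 0.41 without NAEK (limma adjusted p = 0.305) and 0.20 with it (limma adjusted p = 0.411); in these comparisons 0.00650% and 0.0130% of all coding regions passed.

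ODC1, the rate-limiting enzyme of the pathway and the target of antizyme, leaned the other way. Its coding density was 59.4 and 64.5 RPKM in HEK293T cells without NAEK and 54.8 and 63.3 with it, against 50.6 and 55.4 RPKM and 50.5 and 52.1 RPKM in transgenic cells. The lines overlapped by 1 library on each side. The log2 difference over both NAEK states was -0.21 (95% interval -0.38 to -0.03) and did not pass (limma adjusted p = 0.180).

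Set against each other within a library, OAZ1 and ODC1 separated the lines with a gap wider than the spread inside either line. The OAZ1 to ODC1 ratio of coding densities was 2.01 and 2.07 in HEK293T cells without NAEK and 2.15 and 2.21 with it. In transgenic cells it was 3.23 and 3.10 without NAEK and 2.98 and 2.80 with it. The ratio was 1.43-fold higher in transgenic cells, and 1.40 to 1.47-fold higher with any 1 library left out. The log2 difference was 0.63 without NAEK and 0.40 with it. Such a ratio does not depend on the library total.

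Over all 15 pairs of the 6 genes, 4 ratios did not overlap between the lines. These were OAZ1 to ODC1, OAZ1 to SAT1, SAT1 to AZIN1 and ODC1 to SRM, which share genes with each other. The OAZ1 ratios were higher in transgenic cells, and SAT1 to AZIN1 and ODC1 to SRM were lower. Each had an exact two-sided permutation p of 0.0286, the smallest that 4 libraries against 4 allow. The adjusted p was 0.107 over the 15 pairs, so none passed. With only 4 separated pairs of 15, none could have passed, however wide the gap. Separation of this kind is common in the tables. OAZ1 over another coding region was higher in all transgenic libraries for 26.7% of 45822 regions, and another region over ODC1 was so for 18.2% of 46155. These shares count only ratios higher in transgenic cells, so separation in either direction is at least as common. No such share is given for ratios to SAT1 or AZIN1.

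**Figure D2:**
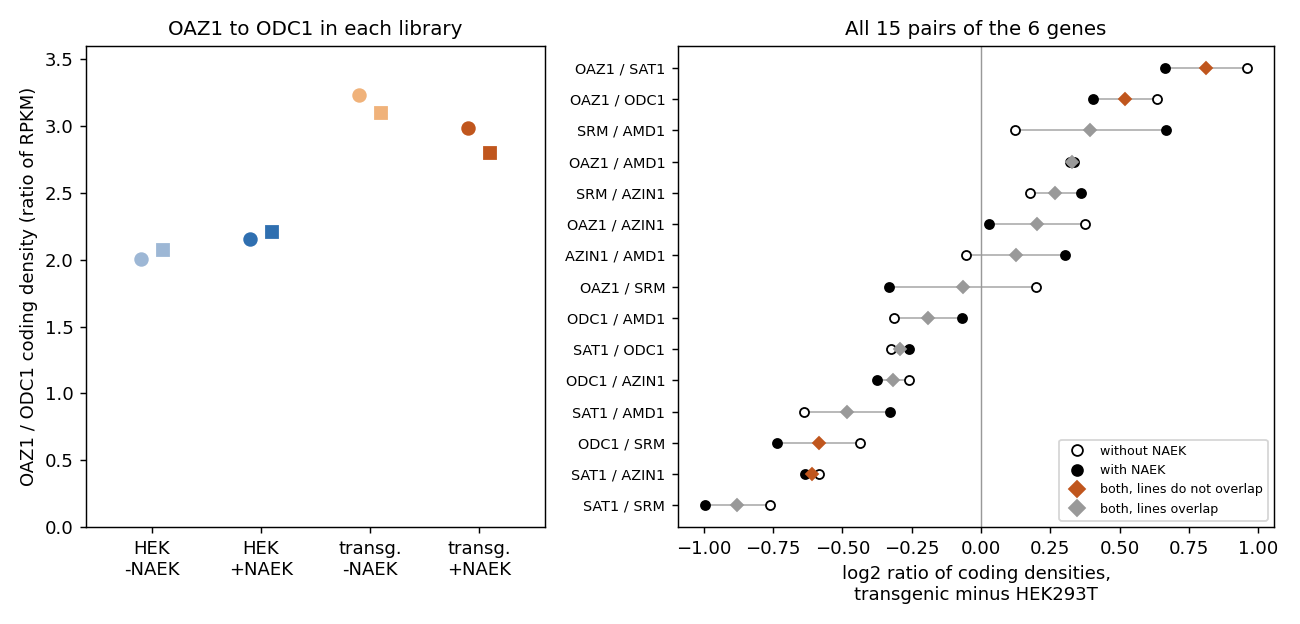
Left, the ratio of OAZ1 to ODC1 coding density (y axis) in each library of the 4 groups, circles for replicate 1 and squares for replicate 2; the 4 HEK293T libraries lie between 2.01 and 2.21 and the 4 transgenic ones between 2.80 and 3.23. Right, the log2 difference between lines (x axis, transgenic minus HEK293T) of the density ratio for the 15 gene pairs (y axis), with open circles without NAEK, filled circles with NAEK and diamonds over both, orange where the lines do not overlap.

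AZIN1, the decoy that frees ODC1 from antizyme, stood at 18.7 ± 2.16 RPKM (SD, n = 4) in HEK293T and 20.0 ± 0.761 RPKM (SD, n = 4) in transgenic cells. Its coding density was 21.4 and 17.2 RPKM in HEK293T cells without NAEK and 19.6 and 16.7 with it, against 19.6 and 19.7 RPKM and 21.2 and 19.7 RPKM in transgenic cells. The lines overlapped, and the log2 difference of 0.10 (95% interval -0.12 to 0.32) did not pass (limma adjusted p = 0.607). Its reads numbered 343 to 542 per library.

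The enzymes that lead to spermidine stood at unlike levels. SRM, spermidine synthase, had coding densities of 24.1 and 34.6 RPKM in HEK293T cells without NAEK and 24.0 and 30.8 with it. In transgenic cells it had 30.6 and 36.4 RPKM without NAEK and 39.7 and 39.2 with it. The 2 transgenic libraries with NAEK were the highest of the 8, and the other groups overlapped. No share of all coding regions with such an order is given here. The log2 difference between lines over both NAEK states was 0.36 (95% interval 0.06 to 0.67), which did not pass (limma adjusted p = 0.185). Within a NAEK state it was 0.20 without NAEK (limma adjusted p = 0.788) and 0.52 with it (limma adjusted p = 0.249).

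AMD1, S-adenosylmethionine decarboxylase, held 10.6 and 7.11 RPKM in HEK293T cells without NAEK and 9.77 and 8.85 with it, against 10.2 and 8.34 RPKM and 7.69 and 9.39 RPKM in transgenic cells. All 4 groups overlapped. These values rest on 122 to 202 reads per library, so that 126 reads, for example, carry an exact 95% Poisson interval of 105 to 150. The log2 difference between lines was -0.02 (95% interval -0.34 to 0.30, limma adjusted p = 0.954).

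SAT1, the acetyltransferase of polyamine breakdown, varied most between replicates. Its coding density was 148 and 87.3 RPKM in HEK293T cells without NAEK and 169 and 96.4 with it. In transgenic cells it was 93.5 and 64.5 RPKM without NAEK and 95.7 and 90.0 with it. Replicate 1 was above replicate 2 in all 4 groups, by 1.06 to 1.75-fold, a pattern shown by 16.3% of coding regions. The within-group SD of log2 density was 0.43 for SAT1, against 0.10 to 0.23 for the other 5 genes and a median of 0.16 over all coding regions tested. With 600 to 1789 reads per library, the gap in HEK293T cells exceeded counting error: 1789 reads carry an exact 95% Poisson interval of 1707 to 1874, or 161 to 177 RPKM, and 806 reads one of 89.9 to 103 RPKM. The lines overlapped, and the log2 difference of -0.50 (95% interval -1.02 to 0.02) did not pass (limma adjusted p = 0.264). ODC1 showed the opposite order of replicates, with replicate 1 below replicate 2 in all 4 groups, by a ratio of 0.866 to 0.970. The share of coding regions with that order was not computed.

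For the lines compared over both NAEK states, 0 of 6 members passed an adjusted p of 0.05, against 1.82% of the 46156 coding regions. At an unadjusted p under 0.05 there were 3 of 6 (OAZ1, SRM and ODC1), against 20.0% of all regions. The members' log2 differences ran from -0.50 to 0.36 with a median of 0.04, and the median over all regions was -0.0037. No member differed beyond the threshold.

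**Figure D3:**
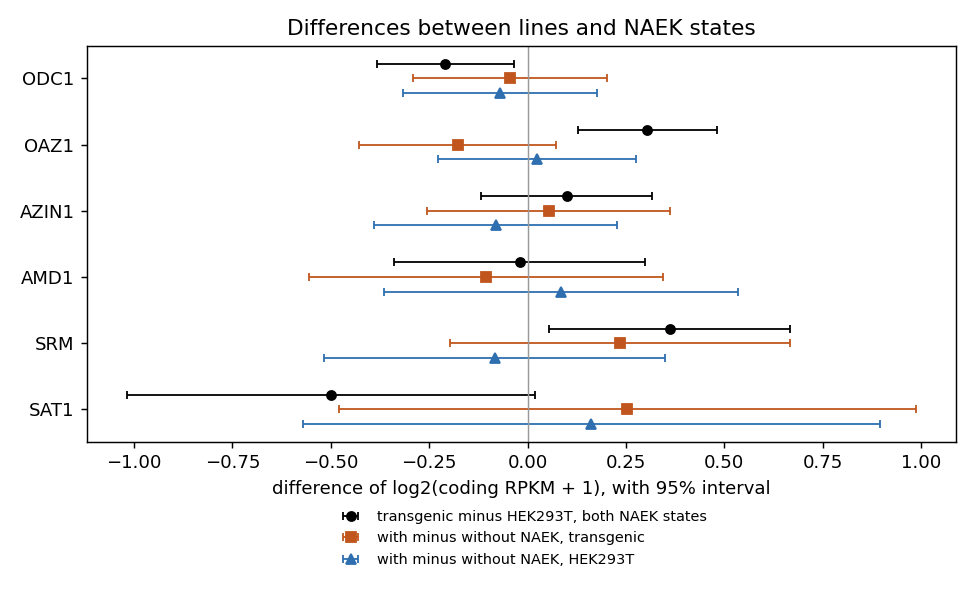
Fitted differences of log2(coding RPKM + 1) (x axis) for the 6 genes (y axis), with 95% intervals from limma that are not adjusted for the number of regions tested. Black circles compare the lines over both NAEK states, orange squares NAEK in transgenic cells and blue triangles NAEK in HEK293T cells; only the line comparisons of ODC1, OAZ1 and SRM have intervals that leave out 0, and none passes after adjustment.

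NAEK changed none of the 6 coding regions past the threshold in either line, and 0% of all 46156 regions passed there. At an unadjusted p under 0.05, limma gave 0 of 6 members in either line, with 2739 regions in transgenic cells and 1392 in HEK293T cells, and voom on recovered reads called 9 and 1 regions, none of them a member. In transgenic cells, where the tRNA can be charged, the members' log2 changes ran from -0.18 to 0.25 with a median of 0.0049, against a median of 0.04 over all regions (limma adjusted p from 0.890 to 0.987). OAZ1 stood lower with NAEK in both libraries, at a log2 change of -0.18 (95% interval -0.43 to 0.07), and SRM higher in both, at 0.23 (95% interval -0.20 to 0.67). The NAEK states did not overlap for these 2 of 6 genes, and 37.0% of all coding regions were separated that way. The log2 change was 0.05 for AZIN1, -0.04 for ODC1, -0.11 for AMD1 and 0.25 for SAT1, and the interval of SAT1 reached from -0.48 to 0.99.

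In HEK293T cells, which lack the tRNA, all 6 genes overlapped between the NAEK states, while 26.1% of coding regions did not. Log2 changes were -0.07 for ODC1, 0.02 for OAZ1, -0.08 for AZIN1, 0.09 for AMD1, -0.08 for SRM and 0.16 for SAT1 (limma adjusted p = 1.00 for each). The difference between the lines in the NAEK change was itself tested. It ran from -0.20 for OAZ1 to 0.32 for SRM on the log2 scale, and no member passed (limma adjusted p = 1.00 for each). Over the lines together, the NAEK change lay between -0.08 for OAZ1 and 0.21 for SAT1, again without a call (limma adjusted p from 0.980 to 0.998).

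Past the stop codon, AMD1 had the most recovered reads of the 6 transcripts, in the longest region. Mean density there over the 8 libraries was 0.814 RPKM for AMD1, below ODC1 (2.47) and SAT1 (1.34). It was 0.532 for AZIN1, 0.526 for OAZ1 and 0.351 for SRM. The first extended region of AMD1 came out as 384 nt, or 128 codons, and held 42 reads over the 8 libraries. The first extended regions of the others were 276 nt for SRM, 81 nt for AZIN1, 60 nt for OAZ1 and 15 nt for ODC1 and SAT1. They held 13, 6, 4, 5 and 3 reads over the 8 libraries, in that order. A length recovered from so few reads is the shortest that makes them whole and can fall short of the true one. The reads recovered with it would then fall short by the same factor. Density in percent of the coding density would stay the same, but its interval and floor would change. A region of 15 nt is also shorter than a ribosome footprint, so that a ribosome on the stop codon itself may reach into it.

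With reads pooled over the 8 libraries, density in the AMD1 extension was 8.84% of its coding density (exact Clopper-Pearson 95% interval 6.34 to 12.02%). For SRM it was 1.07% (0.568 to 1.83%), for AZIN1 2.78% (1.02 to 6.05%) and for OAZ1 0.340% (0.0927 to 0.872%). For the short regions of ODC1 and SAT1 it was 4.30% (1.40 to 10.04%) and 1.36% (0.280 to 3.96%). PCR can copy 1 molecule into many reads, and the intervals leave that out: they cover counting error only. The interval of AMD1 lay above those of SRM, OAZ1, SAT1 and AZIN1 and overlapped that of ODC1. Library by library, SRM had reads there in 7 of 8 libraries and AMD1 stood above it in 8. The other 4 genes had 0 reads in 5 of 8 libraries each, too few to be ranked in single libraries.

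In single libraries the AMD1 extension held few reads and its share moved widely. The HEK293T libraries without NAEK held 4 and 10 reads and those with NAEK 7 and 4, or 5.69 and 20.8% and 9.07 and 7.27% of the coding density. The transgenic libraries held 7 reads and 1 read without NAEK and 2 and 7 with NAEK, or 10.3 and 1.70% and 3.94 and 15.02%. The gap inside a group was wider than that between group values in 3 of 4 groups, and all 4 groups overlapped. Reads were present in every library, HEK293T cells without NAEK included.

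No difference in the AMD1 extension passed the test. Relative to the coding region, the log2 change with NAEK was 0.32 in transgenic cells (95% interval -0.94 to 1.57, limma adjusted p = 0.918) and -0.26 in HEK293T cells (95% interval -1.52 to 0.99, limma adjusted p = 0.998). The lines differed by -0.17 over both NAEK states (95% interval -1.05 to 0.72, limma adjusted p = 0.903). The density of the extension by itself changed with NAEK by 0.21 on the log2 scale in transgenic cells (limma adjusted p = 0.936), where 1.74% of 7801 first extended regions passed. In HEK293T cells that change was -0.18 (limma adjusted p = 1.00), with 0% of regions passing, and between the lines the difference was -0.19 (limma adjusted p = 0.854), with 0.0256% passing. Of the 7801 ratios to the coding region, 0.0128% passed for NAEK in transgenic cells and 0% in HEK293T cells. As a fold of the ratio with 1 RPKM added to each density, the AMD1 interval with NAEK reached from 0.522 to 2.976 in transgenic cells. The AMD1 extension held only 0.142 to 1.48 RPKM per library, so the added 1 shrinks its changes. That interval is therefore no limit on the change of the share in percent.

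**Figure D4:**
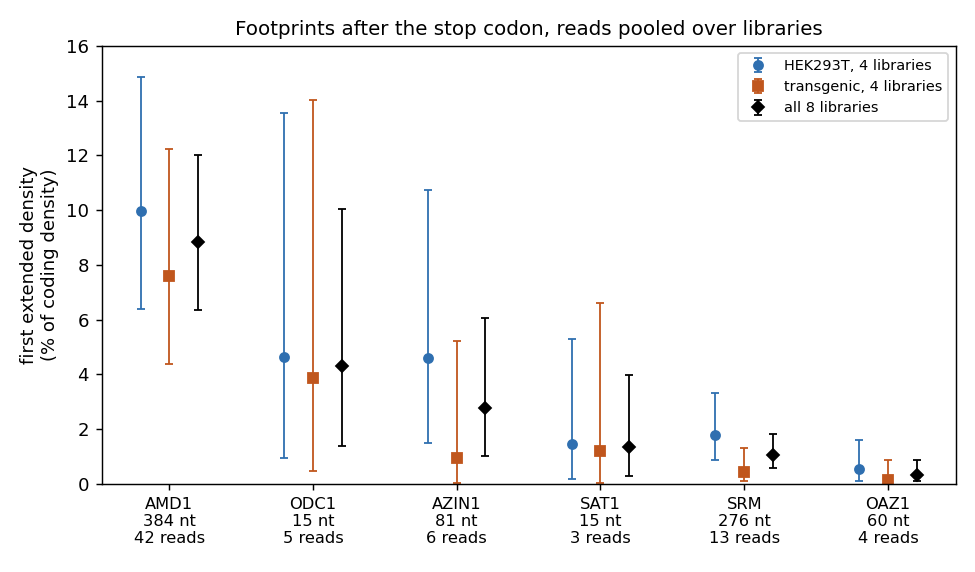
Density of the first extended region in percent of the coding density (y axis) for each gene (x axis, with the length of the region and its reads over 8 libraries). Points pool reads over 4 HEK293T, 4 transgenic or all 8 libraries, and bars are exact 95% Clopper-Pearson intervals of the reads. AMD1 stands at 8.84% over all libraries, and OAZ1 at 0.340%.

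Against other transcripts, the AMD1 extension was long, and its place by density depended on the set compared. Among 27167 protein-coding transcripts that averaged 50 coding reads or more, 30.8% had 0 reads in the first extended region, and AMD1 stood at the 76.2th percentile of its density in percent of the coding density. Among the 6084 of them with at least 10 reads there, the median was 9.72%. AMD1 was near the middle, at the 48.6th percentile. Only 2.40% of those 6084 regions were as long as that of AMD1 or longer. The 304 transcripts with a recovered extension length at least that of AMD1 had a median of 1.86% of the coding density. An extension with 0 reads has no recovered length and was left out, and one with few reads can come out too short. AMD1 stood at the 90.8th percentile among those 304, which include regions with fewer than 10 reads but none with 0. It was not ranked among regions this long with at least 10 reads. SRM, whose region is the next longest of the members, stood at the 39.8th percentile among the 27167. Among the 6084, which were picked for having reads there, it stood at the 6.41th. These percentiles are descriptions, because transcripts of 1 gene share reads and lengths are short estimates where reads are few.

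SRM was the other member with enough reads for the test of the first extended region, with 13. Reads in HEK293T cells were 2 and 3 without NAEK, then 1 and 4 with NAEK. All transgenic libraries had 1 read each except -NAEK replicate 2, which had 0. Pooled by line, that is 1.79% of the coding density in HEK293T (0.859 to 3.31%) and 0.454% in transgenic cells (0.0937 to 1.33%), intervals that overlap. The log2 difference of the ratio was -0.72 (95% interval -1.41 to -0.04) and did not pass (limma adjusted p = 0.417). It was -1.57 with a pseudocount of 0.1 and -0.41 with one of 5, again without a call. Of the 7801 ratios, 0.0513% passed for the lines.

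The first extended regions of ODC1, OAZ1, AZIN1 and SAT1 did not reach the minimum of 10 reads set for the test, and none passed when that minimum was dropped. OAZ1, with the most coding reads of all members at 13455 over the 8 libraries, gave the tightest bound. Its extension of 60 nt held 2 reads in HEK293T -NAEK replicate 2, 1 in HEK293T +NAEK replicate 2, 1 in transgenic +NAEK replicate 2 and 0 in the other 5 libraries. In transgenic cells without NAEK, 0 reads allow a density of up to 0.834% of the coding density, taken as 3 reads over the group. AZIN1 had 3 and 2 reads in the HEK293T -NAEK libraries, 1 in transgenic -NAEK replicate 1 and 0 in the 4 libraries with NAEK, where 3 reads would be 5.50% of the coding density in HEK293T and 5.98% in transgenic cells. For ODC1, the reads were 1 in HEK293T -NAEK replicate 2, 2 in HEK293T +NAEK replicate 2 and 2 in transgenic +NAEK replicate 1, with 0 elsewhere. SAT1 had 1 read in each of 3 libraries, both HEK293T replicates 1 and transgenic -NAEK replicate 2. A change with NAEK in these regions was not detectable at this depth.

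Second extended regions held few reads or none. AMD1, AZIN1 and SRM had 0 reads there in 8 of 8 libraries. The floor of 3 reads would be 2.18e-06% of the 137543688 reads of all libraries. Without reads no length could be recovered, so this floor concerns reads and not density. Whether these transcripts have such a region is unknown. ODC1 had 2 reads, and OAZ1 and SAT1 had 1 read each. Their regions came out as 24 nt for ODC1 and SAT1 and 9 nt for OAZ1, too short for the reads to say much about density. No member reached the 10 reads needed for the test.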

How the data were processed

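Footprints of 8 libraries were prepared with TruSeq Ribo Profile kits per the labels' protocols, and the submitters' processing notes name Bowtie 1.2.2 and hg38. The authors deposited RPKM per transcript and region, 1 table per group, per the file headers. Groups and replicates came from table names and headers matched to sample titles. Nothing in the labels tells whether the replicates of a group came from separate cultures, and p-values therefore reflect the scatter of these libraries, possibly a technical one.

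Reads and region lengths were recovered from the deposited RPKM as the smallest whole numbers within 1e-05 reads, scaled by the named ends of the synthetase entry. With limma 3.58.1 (R 4.3.3), log2(RPKM + 1) of all 8 libraries was fitted by group alone, with a variance trend, for 7 contrasts. Regions were adjusted together (Benjamini-Hochberg, threshold 0.05). Fold changes on this scale understate changes of low values. The tests kept coding regions averaging 1 RPKM or more, and extended regions with 10 reads over the 8 libraries in transcripts averaging 50 coding reads. The log2 ratio of first extended to coding RPKM, 1 added to each, was tested alike. Recovery and tests were also run on simulated data. For recovery, the simulated regions were longer than the first extended regions recovered for ODC1, OAZ1, AZIN1 and SAT1, so those were not covered. Replicates shared numbers but no stated pairing. Python 3.11.15 did the rest.

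Members and lists were chosen with earlier results of these data known, and ratios between members and percentiles after their values were seen. All 6 members are named throughout. Alternatives were other pseudocounts, filters, no trend, the replicate block, voom and each library left out. Other genes of the pathway, and transcripts most like a member, were not analysed here, since no table used ties other transcripts to genes. Stop codons and protein sequences were not used here. An interval of a pooled read share is Clopper-Pearson at 95%, and a floor is 3 reads.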

Additional observations from a re-analysis of the deposited data

How the results depend on the processing

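No member's coding region, first extended region or ratio of these passed in the main test of any contrast, and none did so under the alternatives run, except that 1 member, OAZ1, passed for the lines over both NAEK states in 3 of 15. These were a minimum of 50 reads throughout 1 group (log2 0.30), the replicate block (0.30) and voom on recovered reads (0.31). The block moved that count from 0 to 1 and changed no other member's call. Deviations of same-numbered libraries correlated over coding regions, which are not independent, with r from 0.05 to 0.32 between groups, and the block raised calls over all coding regions for the lines from 838 to 2664. Those 838 calls became 297 with no minimum, 2636 with the stricter one, 220 with no variance trend, 3270 under voom and 7 to 444 without 1 library. The 136 first extended regions called for NAEK in transgenic cells became 0 with no minimum, 10 with the stricter one, 76 with no variance trend, 21 and 226 with pseudocounts of 0.1 and 5, 0 with the block or with the compared libraries alone, 274 under voom and 0 to 40 without 1 library. With any 1 library left out, 0 members passed in each contrast. Several log2 changes turned sign, none of them a call in any setting. Without 1 library, the line difference ran from -0.15 to 0.11 for AMD1. The NAEK change in transgenic cells ran from -0.11 to 0.0205 for ODC1, from -0.24 to 0.0246 for AMD1 and from -0.0114 to 0.52 for SAT1. In HEK293T cells it ran from -0.17 to 0.0318 for ODC1, -0.17 to 0.34 for AMD1, -0.23 to 0.0673 for AZIN1, -0.34 to 0.17 for SRM, -0.10 to 0.15 for OAZ1 and -0.24 to 0.56 for SAT1. The ratio of first extended to coding density ran from -0.45 to 0.12 between lines for AMD1 and from -0.31 to 0.20 with NAEK in transgenic cells for SRM, which also turned to 0.73 with a pseudocount of 0.1. Over all settings run, the ratio of AMD1 with NAEK in HEK293T cells ran from -0.84 to 0.31. Its first extended density ran from -0.23 to 0.66 with NAEK in transgenic cells, from -0.49 to 0.13 in HEK293T cells and from -0.69 to 0.0358 between lines. The line difference of SRM without NAEK ran from -0.0506 to 0.46. The causes were not tested. The stricter minimum on reads left no member's extended region to test, and second extended regions had no member in the main test. Leaving out each library and adding 1 or 5 RPKM for the OAZ1 to ODC1 ratio were chosen after seeing the data, and the fold stayed between 1.40 and 1.47. Depth limits the extended regions of all 6 members, AMD1 with 42 reads and SRM with 13 included.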
